A study of Homo sapiens with 3 samples.

Results

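The olfactory receptor genes of chromosome 11 were examined as a gene class known to be nearly silent outside the nose, in 3 RNA-seq libraries labelled HepG2. A member was any deposited gene row on chromosome 11 whose symbol was OR followed by a family number, subfamily letters and a gene number, so that names with a pseudogene suffix were left out. The rule took 171 of 43389 rows and used no expression value. The libraries, replicates 1 to 3, came from polyA RNA of the wild-type human liver cancer cell line HepG2, with no treatment and no second condition, and nothing in the labels says that they came from separate cultures. As a check of the label, 12 genes for secreted liver proteins were read, of which 12 stayed under 1 TPM (a transcript abundance scaled for gene length and library total) and 9, ALB and APOA1 among them, were listed at 0. Their summed level was 0.0571 to 0.244 TPM per library, which goes against the label of a liver line, and the values below are those of the libraries as labelled. In contrast, 7 of 7 housekeeping genes were at or above 1 TPM in every library.

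Olfactory receptors are G protein-coupled receptors that detect odorants on the cilia of sensory neurons in the nasal epithelium. Each such neuron expresses a single receptor gene from a very large family, and the other receptor genes are kept silent. The coding region of a receptor normally lies in a single exon, and the genes stand in clusters. Class I receptors (families OR51, OR52 and OR56 here) form a cluster around the beta-globin genes on the short arm of chromosome 11, and class II receptors include all other families. Some receptors are known from other tissues, such as OR51E2, a prostate-enriched receptor.

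A stretch of coding sequence shared by the family is shown for the members on which the results turn, because it lets near neighbours with very different values be compared base by base. It encodes the conserved end of the third transmembrane helix and was found by the pattern GANNGNTNNNTNGCNAT, made of the bases that the 6 members shown share in this stretch, with N for any base. The pattern occurred in the coding sequence of 120 of the 167 members with a coding region in GENCODE v44 (71.9%), against 7 (4.19%) on the opposite strand of the same sequences. The windows of 30 bases from GRCh38 are written 5′ to 3′ on the coding strand, with the bases matched to the pattern in capitals.
OR51E2: atggcctttGACCGTTATGTGGCCATctgc
OR51E1: atggcttttGACCGCTATGTGGCCATctgt
OR51B4: ttggcctatGACTGTTTCATTGCCATccgc
OR51B2: atggcatatGATTGTTTCATTGCCATccgc
OR51B5: atggcctatGACCGTTTTATTGCCATctgc
OR52D1: atggcctttGATAGGTATGTGGCTATctgt
The OR51E2 window lies on the minus strand at chr11:4682334-4682363 and the OR51E1 window on the plus strand at chr11:4652887-4652916. Those of OR51B4 (chr11:5301575-5301604), OR51B2 (chr11:5323923-5323952) and OR51B5 (chr11:5343150-5343179) are on the minus strand, that of OR52D1 (chr11:5489067-5489096) is on the plus strand, and all 6 are exonic and coding. The window of OR51E1 differed from that of OR51E2 at 3 bases, and the windows of OR51B5, OR52D1, OR51B4 and OR51B2 differed from it at 4, 5, 8 and 9 bases. Over the whole coding region, OR51B4 was 69.5% identical to OR51B2 and 69.8% identical to OR51B5, and OR51E1 was 64.4% identical to OR51E2. OR51E2 was 56.0% identical to OR51B4 and 59.3% identical to OR51B5. Of the 3 members with the highest levels, described below, OR51B4 and OR51B5 were thus the closest in sequence.

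In each of the 3 libraries the same 3 members, OR51E2, OR51B5 and OR51B4, were at or above 1 TPM, and the other 168 were below it in all 3. Over all rows, 32.8% were at or above 1 TPM in any library and 30.7% in all 3 libraries, and over the 2128 rows of chromosome 11 these shares were 38.5% and 36.1%. Above 0 TPM were 28 members in any library and 14 in all 3, against 53.9% and 42.8% of all rows and 60.5% and 48.3% of the rows of chromosome 11. The remaining 143 members were listed at 0 in all 3 libraries. The summed level of the class was 42.0, 38.9 and 35.8 TPM in replicates 1, 2 and 3, a mean of 38.9 ± 3.11 TPM (SD, n = 3). The members at or above 1 TPM took 94.6%, 91.9% and 95.2% of this sum. With these rows set aside, the sum over the other 168 members was 2.28, 3.17 and 1.70 TPM, so that nearly all of the signal of the class came from 3 rows of the OR51 family.

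**Figure D1:**
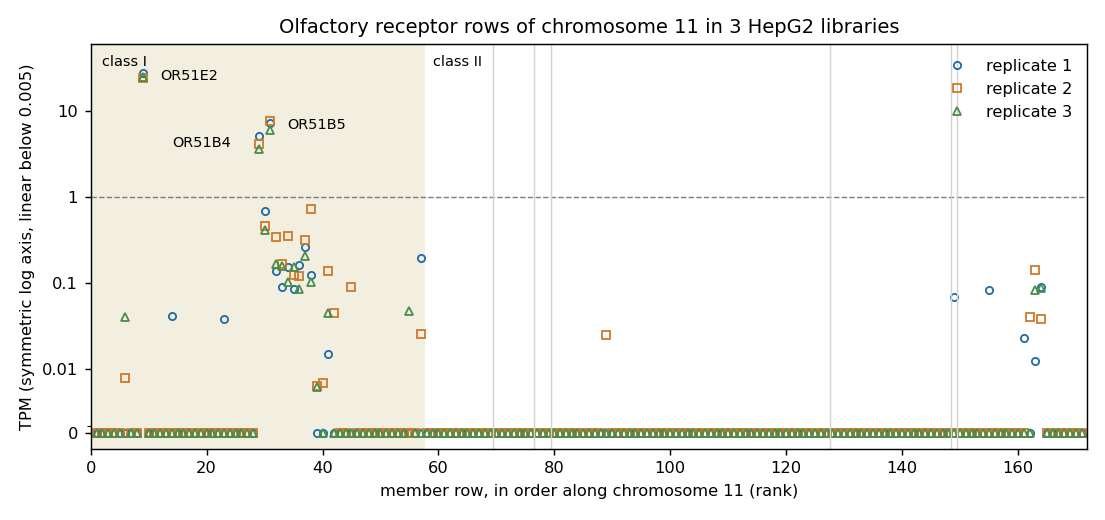
TPM (symmetric log axis) of the 171 members in the order of their position on chromosome 11, with 1 symbol per library, the 1 TPM limit dashed, class I shaded and vertical lines between groups of rows more than 1 Mb apart. OR51E2, OR51B5 and OR51B4 lie above the limit in all 3 libraries, 143 members lie at 0, and most others above 0 are class I rows.

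OR51E2 had the highest level of the class. Its row spans chr11:4680171-4697846 on the minus strand. It had 27.5, 24.0 and 24.5 TPM in replicates 1, 2 and 3, a mean of 25.3 ± 1.89 TPM (SD, n = 3). The 3 values were close, with a coefficient of variation of 7.46%. Its coverage, a mean read depth not scaled for library size, was 172, 147 and 135. This need not be the depth over all 17676 bp of the OR51E2 row, which holds introns. OR51E1, its closest relative by name, is a plus-strand gene (chr11:4643982-4655488) that ends 24.7 kb before the OR51E2 row begins. It was listed at 0 in all 3 libraries. The nearest rows with a mean of at least 1 TPM outside the class were TRIM68, which lies 71.9 kb from OR51E2 and had 7.43 ± 0.813 TPM (SD, n = 3), and HBE1, which lies 570 kb away on the other side. No row overlapped OR51E2.

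OR51B5 was second. Its row runs over 164770 bp, chr11:5340883-5505652, on the minus strand, and the coding window printed above lies near the low end of the row. It had 7.18, 7.62 and 6.01 TPM in replicates 1, 2 and 3, a mean of 6.94 ± 0.832 TPM (SD, n = 3). The ratio of coverage to FPKM was 3.30, 3.25 and 3.31 for OR51B5, against 13.3, 12.8 and 11.5 for most members above 0. OR51E2 was among the latter, and its transcripts in GENCODE v44 have at most 3 exons. Lower ratios were also found for OR52N4 in replicates 2 and 3 (8.07 and 7.21, with 13.3 in replicate 1). OR52N2 (1.55 in replicate 2) and OR2AT4 (8.49 in replicate 1), each above 0 in that library alone, were lower too. All of these rows are longer than 1500 bp. GENCODE v44 lists 5 transcripts of OR51B5, with at most 5 exons each, and the part of the row's structure in this ratio was not tested. How much of the value fell on the coding exon was not analysed here, because the tables give 1 value per row.

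OR51B4 came next. Its row covers 933 bp of coding sequence at chr11:5301014-5301946 on the minus strand. It had 5.10, 4.17 and 3.60 TPM in replicates 1, 2 and 3, a mean of 4.29 ± 0.760 TPM (SD, n = 3). Coverage multiplied by the length of the row gave 29859, 23875 and 18457 aligned bases, so that the value rests on far more than a few reads. Its neighbour OR51B2 (chr11:5323298-5324352) had 0.694, 0.460 and 0.414 TPM, a mean of 0.523 ± 0.150 TPM (SD, n = 3). OR51B4 lay above the limit of 1 TPM and OR51B2 below it in each library, so their order follows from that grouping. By these values, OR51B4 was the lowest member inside the limit of 1 TPM, and OR51B2 had the highest mean of those outside it. The highest single value below the limit, 0.723 TPM, belonged to OR52D1 in replicate 2.

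**Figure D2:**
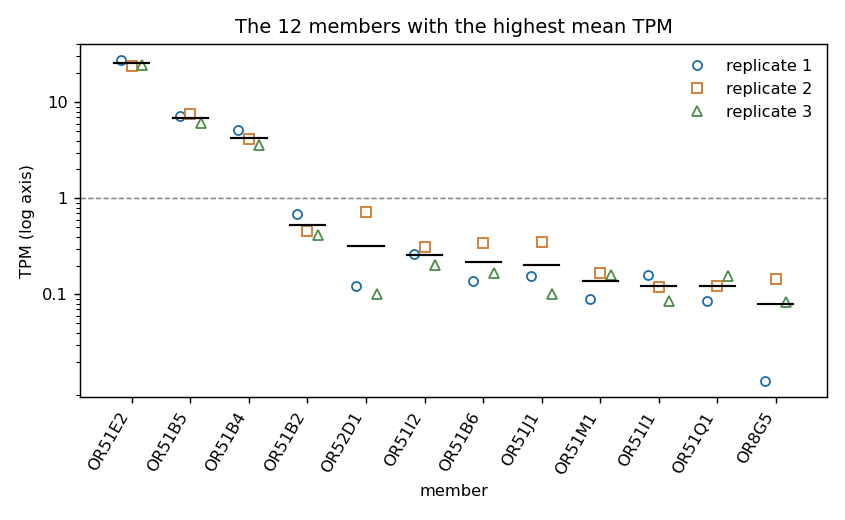
TPM (log axis) of the 12 members with the highest mean, with 1 symbol per library and a bar at the mean of 3 libraries. Coefficients of variation run from 7.46% for OR51E2 to 111% for OR52D1. The latter reaches 0.723 TPM in replicate 2 and stays at 0.102 to 0.124 TPM in the others.

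Of the 14 members above 0 in every library, 10 were neighbours in order along the chromosome, from OR51B4 to OR52D1 (chr11:5301014-5505652). This run was picked by these same values, as the longest without a gap. Of these 10 members, 7 lie inside the row of OR51B5, so the 10 are not separate observations. Outside this run, 4 of 161 members were above 0 in all 3 libraries: OR51E2, OR52N4, OR8G5 and OR8D1. The beta-globin genes lie beside the low end of the run. HBE1, the embryonic beta-like globin, had 8.96 ± 0.562 TPM (SD, n = 3) and ends 31.1 kb before OR51B4. HBB, the adult globin of red cells, had 0.679 ± 0.123 TPM and HBG2, a fetal globin, had 0.495 ± 0.0402 TPM (SD, n = 3). HBD was listed at 0 in all 3 libraries. OR51V1, the receptor row on the far side of the globin genes, was also listed at 0 in all 3. Beyond the high end of the run, OR52H1 had 0, 0.00643 and 0.00624 TPM, and OR52B6 was above 0 in replicate 2 alone, at 0.00695 TPM.

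**Figure D3:**
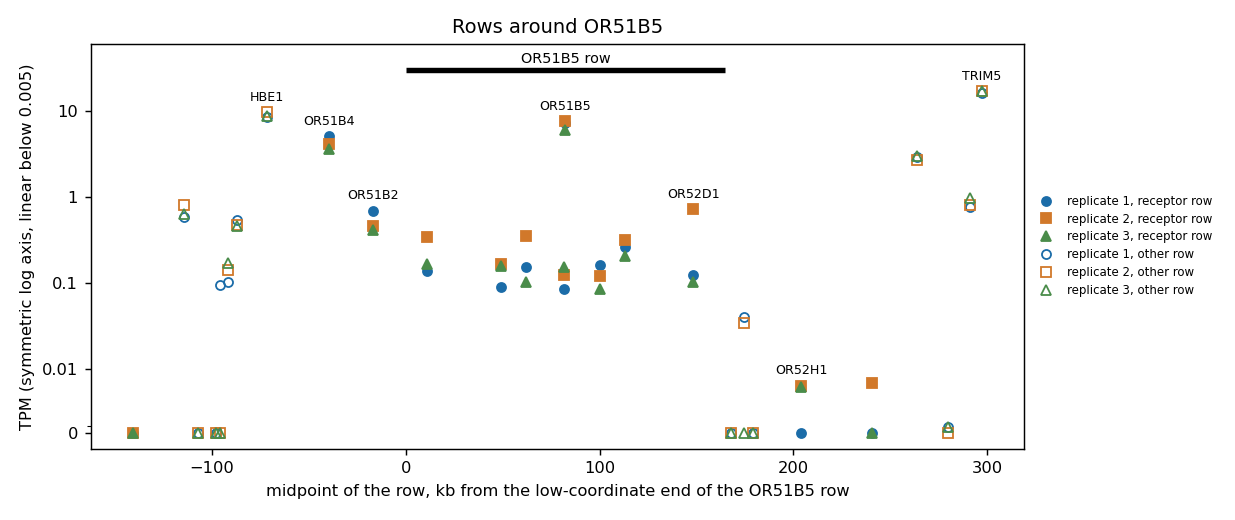
TPM (symmetric log axis) of each row around OR51B5 against the distance of its midpoint from the low end of the OR51B5 row in kb, with filled symbols for receptor rows, open symbols for other rows and a bar for the extent of OR51B5. Receptor rows from OR51B4 to OR52D1 lie above 0 in all 3 libraries, and the other receptor rows drawn, OR51V1 below and OR52H1 and OR52B6 above, lie at 0 to 0.00695 TPM.

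The row of OR51B5 contains 7 other members, OR51B6, OR51M1, OR51J1, OR51Q1, OR51I1, OR51I2 and OR52D1. All 7 were above 0 TPM in all 3 libraries, at means of 0.121 to 0.316 TPM. None of the 7 touched an annotated exon of the 5 OR51B5 transcripts, so they lie in its introns, and 6 are on the opposite strand. OR51I1 is on the same strand. OR51I2 (chr11:5453408-5454477) had 0.261, 0.314 and 0.204 TPM, the most even values of the 7. OR51B6 (chr11:5351508-5352446) had 0.137, 0.342 and 0.168 TPM, and OR51J1 (chr11:5402397-5403771) had 0.156, 0.351 and 0.102 TPM. The highest of the 3 libraries was replicate 2 for 5 of the 7, replicate 1 for OR51I1 and replicate 3 for OR51Q1. OR52D1 (chr11:5488685-5489749) had 0.124, 0.723 and 0.102 TPM, and its mean of 0.316 TPM fell to 0.113 TPM without replicate 2. The strand setting of the authors' quantification is not given in the sources used here, so reads from unspliced OR51B5 RNA and reads from the genes inside it cannot be told apart.

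As a description chosen after the values were seen, 100% of the 7 members within OR51B5 were above 0 in each library, against 7.36%, 8.59% and 5.52% of the 163 other members in replicates 1, 2 and 3, with OR51B5 itself left out. The difference was 92.8 ± 1.54 percentage points (SD, n = 3) and 83.7 percentage points against the other class I members alone. No member overlapped a row outside the class with a mean of at least 1 TPM, so the planned comparison of overlapping with other members had no value.

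Class I and class II members were compared next. Of the 57 class I members, 21 were above 0 in any library and 12 in all 3. Of the 114 class II members, 7 were above 0 in any library and 2 in all 3. The share of rows above 0 was 26.3%, 31.6% and 26.3% in class I and 4.39%, 3.51% and 1.75% in class II in replicates 1, 2 and 3. Class I was higher in 3 of 3 libraries, by 24.9 ± 3.08 percentage points (SD, n = 3). An exact permutation test that flips the sign of each library's difference, two-sided, gave p = 0.25, the smallest p that 3 libraries allow, and 0.292 after Benjamini-Hochberg adjustment over 7 comparisons. Without the members inside OR51B5, the difference was 14.8 percentage points. All class I members lie at chr11:4367263-6200186, where no class II member lies, so class and position cannot be told apart.

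By family, OR51 had 11 of 24 members above 0 in any library, OR52 had 8 of 27 and OR56 had 2 of 6. OR51 took 41.4, 37.6 and 35.4 TPM of the summed level in replicates 1, 2 and 3, and OR52 took 0.376, 1.00 and 0.194 TPM. Among class II families, OR8 had 3 of 21, OR10 had 2 of 16, OR4 had 1 of 25 and OR2 had 1 of 5. OR5, the largest family on the chromosome with 35 members, was listed at 0 throughout, as were OR6, OR9 and OR1 with 5, 5 and 2 members.

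By position, the rows fell into 7 stretches separated by more than 1 Mb. The first (chr11:4367263-7939520) held 69 members, of which 21 were above 0 in any library. All 21 were class I, and the class II members at its high end were listed at 0. The stretch at chr11:54603069-56989843 held 48 members, of which only OR4C6 was above 0, at 0.0252 TPM in replicate 2. The 21 members at chr11:58023881-59713845 were listed at 0 in all 3 libraries, and so were the 7 and 3 members of the stretches before chr11:54603069. OR2AT4, which stands alone at chr11:75088692-75100854, had 0.0695 TPM in replicate 1 and was at 0 in the others. The last stretch, chr11:123753580-124571374, held 22 members, of which 5 were above 0 in any library. OR8G5 (chr11:124264827-124265867) had 0.0126, 0.143 and 0.0844 TPM, and OR8D1 (chr11:124309840-124310766) had 0.0895, 0.0388 and 0.0871 TPM. These were the class II members above 0 in all 3 libraries, and both overlap the row of LOC112267863, whose mean was below 1 TPM.

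The tables hold no read counts, but for 160 members of up to 1500 bp the aligned bases can be recovered as coverage multiplied by the length of the row. All 48 values above 0 in these rows were whole numbers of bases within 0.01 base. On a row of the median length of 954 bp, 1 read of 150 bases is worth 0.0251, 0.0256 and 0.0286 TPM in replicates 1, 2 and 3, and 1 TPM corresponds to 39.9, 39.0 and 35.0 reads. Of the 48 values, 7 rested on fewer bases than 1 read and 15 on no more than the 300 bases of 1 read pair. The smallest was that of OR52H1, with 38 bases in replicate 2 and 33 bases in replicate 3. OR51H1 had 300 bases in replicate 1 and OR56B4 had 300 bases in replicate 3, with 0 in the other libraries for both. Of the 28 members above 0 in any library, 11 were so in 1 library alone and 3 in a pair of libraries. Among these 14 the largest number of aligned bases in a row of up to 1500 bp was that of OR52W1, with 1200, 150 and 0 bases in replicates 1, 2 and 3, and OR10S1 had 518 bases in replicate 1 and 0 in the others. Differences between libraries were not tested for these rows.

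Reads shared between near-identical genes could also move a value. Of the 160 rows of up to 1500 bp, 7 had another stretch of at least 150 bases with at least 97% identity on a primary chromosome of GRCh38. OR52I1, with 0, 0.00802 and 0.0403 TPM, was the one among them above 0. Another 13 members also had rows of the same name on alternate contigs of chromosome 11, and none of these 13 was above 0 on either. The 3 highest members were not among the 13, and OR51B4 was not among the 7.

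Other gene classes with restricted expression were set beside the receptors. Of 228 olfactory receptor genes on other chromosomes, 31 were above 0 in any library and 11 in all 3. The highest was OR1F1 on chromosome 16, with 0.916, 0.803 and 1.14 TPM, so that 0 of the 228 reached 1 TPM in all 3 libraries. The share of rows above 0 was 11.7%, 12.9% and 9.94% on chromosome 11 and 9.21%, 8.33% and 7.89% elsewhere in replicates 1, 2 and 3. The difference was 3.02 ± 1.33 percentage points (SD, n = 3) in 3 of 3 libraries (exact sign-flip permutation test, p = 0.25, adjusted p = 0.292). Without the 7 members inside OR51B5 it turned to -0.756 percentage points. With alternate contigs added to the other receptor rows alone, which raises these to 333, it was 5.70 percentage points. The added rows were all at 0, as the number above 0 in any library stayed at 31. The 16 alternate rows of chromosome 11, also all at 0, were not added to the members. On the log2(TPM + 0.1) scale the mean level of the members was higher by 0.13 ± 0.02 (SD, n = 3), with the same exact permutation p of 0.25. It was 0.06 at a pseudocount of 1, 0.23 at a pseudocount of 0.01 and 0.08 without the members inside OR51B5. This mean includes OR51E2, OR51B5 and OR51B4, which took 94.6%, 91.9% and 95.2% of the summed TPM in replicates 1, 2 and 3. The difference without them was not computed, so it cannot be read as a higher level across the class.

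The keratin-associated protein genes (KRTAP), short clustered genes known from hair, had 10.8%, 14.0% and 9.68% of 93 rows above 0. The difference from the members was 0.0314 ± 1.05 percentage points (SD, n = 3), with p = 1 in the exact permutation test, and its sign changed without replicate 1 or replicate 3. The beta-defensin genes (DEFB), which encode antimicrobial peptides, had 4.76% of 42 rows above 0 in each library, and the members were higher by 6.74 ± 1.47 percentage points (SD, n = 3). This difference was 2.96 percentage points without the members inside OR51B5 and 1.67 percentage points at a minimum of 0.1 TPM. The taste receptors (TAS1R and TAS2R), another chemosensory family, had 59.3%, 59.3% and 70.4% of 27 rows above 0, and the members were lower by a difference of -51.5 ± 7.79 percentage points (SD, n = 3). Of the taste receptor rows, 10 overlapped an expressed row, and the difference was -31.6 percentage points without such rows. The pseudogenes of the family on chromosome 11 had 5, 2 and 4 of 8 rows above 0, and OR7E14P was the highest at 0.798 ± 0.262 TPM (SD, n = 3). The members were lower than these by a difference of -34.3 ± 20.0 percentage points (SD, n = 3). The exact sign-flip permutation test gave p = 0.25 and adjusted p = 0.292 for the defensins, taste receptors and pseudogenes alike. Other classes also held rows that overlap an expressed row. Without such rows the difference was -26.6 percentage points for the pseudogenes, 9.06 for the defensins and 4.06 for receptor genes of other chromosomes.

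**Figure D4:**
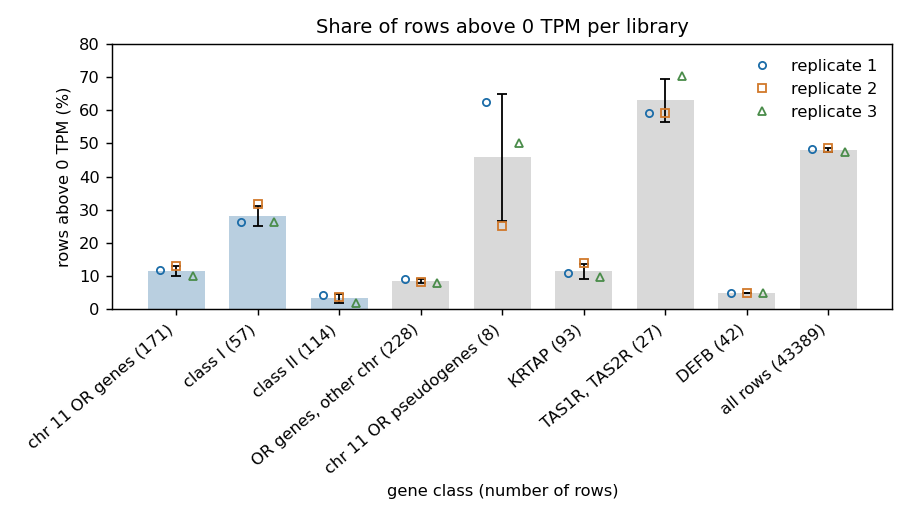
Share of rows above 0 TPM in percent for the receptor genes of chromosome 11, their class I and class II members and other gene classes, with the number of rows in brackets. Bars give the mean of 3 libraries, error bars the SD and symbols each library, and class I lies above class II in each.

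Genes of the olfactory pathway were examined as a list of 29, with signalling partners of the receptors, receptor transport proteins and factors that act on receptor genes among them. Of these, 15 reached 1 TPM in every library, against 30.7% of all rows. Another 9 had no value above 0, while 53.9% of all rows were above 0 in any library. The median of the means of the 29 genes was 3.09 TPM, against 0.0190 TPM over all rows, alternate contigs included. Among the signalling genes, GNAL, the olfactory G protein alpha subunit, had 9.15, 8.53 and 8.51 TPM, and GNAS, its widely expressed relative, had 1101 ± 11.3 TPM (SD, n = 3). ADCY3, the adenylyl cyclase of olfactory cilia, had 35.9, 36.8 and 34.4 TPM. ANO2, a calcium-activated chloride channel of the cilia, had 27.6 ± 2.02 TPM (SD, n = 3). The cyclic nucleotide-gated channel lay at the other end, with CNGA2 and CNGA4 listed at 0 in all 3 libraries and CNGB1 at 0.537 ± 0.0868 TPM (SD, n = 3). GNB1, a G protein beta subunit, had 204 ± 8.58 TPM, and GNG13, a gamma subunit, had 3.09 ± 0.484 TPM (SD, n = 3).

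RTP1 and RTP2, which carry receptors to the cell surface, were listed at 0 in all 3 libraries, as was OMP, the marker protein of mature olfactory neurons. REEP1, a receptor expression enhancing protein, had 7.69 ± 0.611 TPM, and RIC8B, an exchange factor for GNAL, had 10.2 ± 0.564 TPM (SD, n = 3). ARRB2, an arrestin that binds activated receptors, had 37.6 ± 1.70 TPM, PDE4A, a cyclic AMP phosphodiesterase, had 9.84 ± 0.473 TPM and SLC12A2, a chloride uptake carrier, had 5.38 ± 0.630 TPM (SD, n = 3). Of the factors that act on receptor genes, LHX2 had 21.6 ± 0.424 TPM and its partner LDB1 had 45.8 ± 1.65 TPM (SD, n = 3). KDM1A, a histone demethylase, had 107 ± 4.75 TPM and ATF5, a factor of the receptor feedback signal, had 45.7 ± 1.90 TPM (SD, n = 3). EBF1, EBF2 and EBF4 were listed at 0 in all 3 libraries, and EBF3 had 0.0624 ± 0.0292 TPM (SD, n = 3). Many of the genes with high values are used by many cell types. Of 11 markers of olfactory sensory neurons, 4 (GNAL, ADCY3, ANO2 and GNG13) reached 1 TPM in every library and 6 had no value above 0, with a summed level of 72.0 to 78.2 TPM. Of 4 neuron markers, SNAP25 alone reached 1 TPM, and 0 of 6 blood markers did. With bulk RNA, a few cells with a high level and many cells with a low level cannot be told apart.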

How the data were processed

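RNA-seq of 3 libraries labelled wild-type HepG2 was used. Per the methods, paired reads of 150 bp were quality-checked by the authors (FastQC 0.11.8), trimmed (Trim Galore 0.6.2) and aligned to GRCh38 (STAR 2.6.1a), and the submitters' processing notes also name StringTie. The annotation and strand setting are not given in the sources used here. The authors deposited 1 table per library, with the coverage (signal, not scaled for library size), FPKM and TPM of each gene row. The tables held 43391 to 43393 rows, of which the 43389 with the same gene, strand and coordinates in all 3 were used. Read totals per library are not given in the files.

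TPM was used as deposited, with no filter on low values. Differences were taken within a library and tested by an exact permutation of their signs, two-sided, over 3 libraries, with Benjamini-Hochberg adjustment over 7 comparisons. Replicates may be technical, and p-values then measure only that spread. Aligned bases were coverage times row length, for rows of up to 1500 bp. An expressed row had a mean of at least 1 TPM. Alternate contigs were left out of the gene classes except where named, but were kept in the shares and the median over all rows. Named genes were the members at or above 1 TPM, the 10 highest members, the 5 highest below 1 TPM, neighbouring expressed rows, OR51E1, OR51E2, OR51B5, and a list of olfactory pathway genes. Other members, the globin genes, CNGA4, CNGB1, the EBF genes, the families and the highest genes of other classes were named after their values were seen. The members and lists were chosen with earlier results of these data known. Coding regions came from GENCODE v44, and copies were searched with blastn 2.17.0 at 97% identity over 150 bases. Functions were tested on simulated data. Python 3.11.15, numpy 2.4.6, pandas 2.3.3, Biopython 1.88, pysam 0.24.0 and matplotlib 3.10.9 were used. Alternatives included fits without each replicate in turn, other limits and pseudocounts, FPKM, rescaling without mitochondrially encoded genes, pseudogene names, joining by name, and leaving out overlapping rows.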

Additional observations from a re-analysis of the deposited data

How the results depend on the processing

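No paired analysis was possible because there is 1 condition, so replicate numbers pair no samples across groups, and the differences between gene classes were instead taken within each library. Members at or above 1 TPM in any library numbered 3, with 5 at a minimum of 0.5 TPM and 14 at a minimum of 0.1 TPM. A minimum of 0.1 TPM in place of any value above 0 lowered the members in all 3 libraries from 14 to 8 and those in any library from 28 to 14. Leaving out the members within OR51B5, an alternative chosen after the values were seen, left 7 in all 3 libraries. The summed level was 18.5 by FPKM and 48.7 TPM after rescaling without mitochondrially encoded genes. The difference from receptor genes of other chromosomes reversed to -0.756 percentage points, and that from KRTAP genes to -3.75, without the members within OR51B5. With each replicate left out the KRTAP difference ranged from -0.424 to 0.604 percentage points. The difference between members within OR51B5 and the others was 83.3 percentage points at a minimum of 0.1 TPM and 83.7 against class I alone. At that minimum the taste receptor difference was -28.1, the KRTAP difference 1.41 and the defensin difference 1.67 percentage points. The cause of these changes was not tested. The planned comparison of members that overlap an expressed row had no value on either strand, and within 5000 bp it rested on OR52I1 alone (55.5 ± 58.3 percentage points, SD, n = 3). With 3 libraries no comparison can reach a p below 0.25, so the tests say nothing on stability. On a row of 954 bp, values under 0.0251 to 0.0286 TPM rest on less than 1 read of 150 bases.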
